A study of Homo sapiens with 24 samples.

Results

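BT549 is an established human line from a triple negative breast cancer, and its unperturbed transcriptome can be read from the 9 control libraries of a series of 24. These were 3 libraries of cells given a control siRNA (siCtl), 3 of vehicle-treated cells (VEH) and 3 of vehicle-treated cells titled #2 in the labels (called VEH2 here). All members were taken by their labels, and none of the 15 treated libraries was used. The wider series compared MYC knockdown by an siRNA pool for 72 h with siCtl, the MYC inhibitor KJ-PYR-9 at 40 µM for 3 h with VEH, and the GCN5 inhibitor MB-3 at 100 µM for 3 h with the #2 vehicle. The labels gave wild-type cells, RPMI medium with serum and antibiotics, total RNA depleted of ribosomal RNA, and 1 library kit and sequencer for all 3 control groups. DMSO was the solvent of both inhibitors. Neither the duration of the siCtl treatment nor the sequence of its siRNA is stated in the labels. Each control group belonged to a different experiment and to a separately normalised table, so control treatment, experiment and table cannot be told apart. The labels called the replicates biological replicates without naming separate cultures, so spreads here are between libraries.

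Triple negative breast cancers lack oestrogen receptor, progesterone receptor and HER2 amplification. BT549 belongs to the mesenchymal end of that class: such cells have lost the adherens junction protein E-cadherin and the simple keratins of luminal epithelium and carry vimentin, N-cadherin, fibrillar collagens and the transcription factors of the epithelial-mesenchymal transition. Double-stranded or foreign nucleic acid and secreted interferon switch on interferon-stimulated genes through the ISGF3 complex, which contains STAT2 and IRF9 and binds an interferon-stimulated response element in their promoters. Most messenger RNAs end in a poly(A) tail, whereas the replication-dependent histone messages end in a conserved stem-loop, and RN7SL1, the RNA of the signal recognition particle, and mature MALAT1 also lack such a tail.

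The sequences shown here bear on the largest contrasts among the control groups. The first are the promoters of IFIT1, OAS3 and IFIH1, 3 interferon-stimulated genes among the 4 with the largest upward gap in VEH. Each line gives the 250 bases before the RefSeq transcription start (GRCh38.p14), 5′ to 3′ on the gene's strand, and capitals mark matches to GAAA, any 2 bases and GAAA again, the core of the response element, on either strand. GENCODE 29 starts all 3 genes inside these windows, so the last bases of each can be transcribed. The windows are chr10:89392373-89392622 on the plus strand for IFIT1, chr12:112938224-112938473 on the plus strand for OAS3 and chr2:162318685-162318934 on the minus strand for IFIH1.
IFIT1: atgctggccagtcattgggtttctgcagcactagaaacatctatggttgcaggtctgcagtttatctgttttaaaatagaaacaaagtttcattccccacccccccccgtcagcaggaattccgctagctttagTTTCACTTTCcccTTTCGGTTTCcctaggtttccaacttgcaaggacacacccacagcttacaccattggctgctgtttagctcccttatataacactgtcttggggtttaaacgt
OAS3: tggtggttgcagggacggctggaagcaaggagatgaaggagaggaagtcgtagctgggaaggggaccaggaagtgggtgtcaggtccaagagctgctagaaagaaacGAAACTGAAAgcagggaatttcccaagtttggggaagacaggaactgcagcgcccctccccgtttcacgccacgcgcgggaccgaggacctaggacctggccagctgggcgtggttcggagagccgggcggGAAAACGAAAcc
IFIH1: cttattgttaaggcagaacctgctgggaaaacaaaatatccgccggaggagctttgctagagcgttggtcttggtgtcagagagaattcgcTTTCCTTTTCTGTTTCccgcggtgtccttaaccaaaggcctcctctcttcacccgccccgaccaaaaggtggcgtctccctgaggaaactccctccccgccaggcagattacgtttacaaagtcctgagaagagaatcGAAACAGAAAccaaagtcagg
The next lines show the histone stem-loop and 5 flanking bases on each side, in capitals the 16-base stem-loop itself. They come from 3 histone genes on chromosome 6 (GRCh38), each from the GENCODE 29 transcript with the stem-loop nearest its 3′ end. The genes are H2AC8 (chr6:26216975-26217483, plus strand), H2BC13 (chr6:27807444-27807931, minus strand) and H2AC6 (chr6:26124145-26139116, plus strand). All 3 ranges are those of the whole gene.
H2AC8: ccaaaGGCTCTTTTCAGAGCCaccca
H2BC13: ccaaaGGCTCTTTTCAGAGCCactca
H2AC6: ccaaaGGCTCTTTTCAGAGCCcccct
In H2AC8 and H2BC13 the stem-loop lay 51 and 40 bases from the annotated end. In H2AC6 it lay 1114 bases from the end of the transcript used, with an AATAAA hexamer downstream. The same hexamer followed the stem-loop in H2BC5, H2BC9, H2BC18, H2BC21, H3C8 and H3C10, none of which was in the VEH2 table.

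Depth, taken from the value of 1 read in each library, was 18.8 to 24.2 M (1e+06) reads in siCtl, 7.85 to 30.8 M in VEH and 8.31 to 19.96 M in VEH2, where the recovery of whole reads was not established and depth is an estimate. The tables listed 15665, 17796 and 10048 gene symbols for siCtl, VEH and VEH2. Of these, 9860 were in all 3 tables and 9850 had an exon length. Each gene was placed within each library by its percentile, the position of its per-kilobase value among the 9850 genes, with high values for abundant genes. A gene was called shifted in a group when its 3 percentiles lay wholly above or below the 6 of the other groups and the group mean was at least 10 percentile points from each other mean. The VEH2 table lacked low-level genes, so markers near the detection limit were read in siCtl and VEH over the 15019 genes with a length that those tables shared. Levels are values per kilobase of exon scaled to 1e+06 over protein-coding genes.

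Libraries of 1 group agreed more closely than libraries of different groups. Across genes, Spearman's rho was 0.987 to 0.996 within siCtl, 0.980 to 0.987 within VEH and 0.993 to 0.997 within VEH2, against 0.919 to 0.965 between groups; genes are not independent replicates and these values are descriptions. VEH 3, the shallowest library, stood furthest from its own group, with 613 genes (6.22%) more than 10 points from the mean of the other 2. In siCtl 3 the number was 325 (3.30%), while VEH2 2 had the lowest, 27 genes.

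Ranks were averaged over the 9 libraries to find the highest genes, so RNAs abundant in only some groups, such as RN7SL1 (described below), can miss the top 20. Of the 20 genes with the highest mean percentile, 13 were encoded by the mitochondrial genome, namely the whole set of mitochondrial messages for subunits of the respiratory chain and ATP synthase. ATP6, a subunit of ATP synthase, had levels of 18923, 19314 and 17765 in siCtl, 19992, 19053 and 19712 in VEH and 15909, 16485 and 17853 in VEH2, and it ranked between 1 and 3 in every library. COX3, a subunit of cytochrome oxidase, ranked between 1 and 5. ND5 and ND6, 2 subunits of complex I, showed an order among the groups, with ND5 at 8639, 8454 and 8579 in siCtl, 7654, 7172 and 6367 in VEH and 4999, 4969.5 and 4939 in VEH2, and these ranges did not overlap. Neighbouring mitochondrial genes overlap (ATP8 with ATP6, ND4L with ND4), so their levels share reads. Mitochondrial messages took 2.68% to 3.19% of all reads in the 9 libraries.

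The nuclear genes of the top 20 were ACTB and ACTG1, the cytoplasmic actins, TMSB10, an actin monomer-binding peptide, FTL, the ferritin light chain, RPL8, a ribosomal protein, LGALS1, the lectin galectin-1, and SCD, the desaturase that makes monounsaturated fatty acids. ACTB levels were 11333, 11706 and 10256 in siCtl, 12834, 14246 and 16491 in VEH and 11269, 10869 and 11278 in VEH2. SCD was the least even of the 20, at 6064, 6183 and 3407 in siCtl, 3341, 1760 and 4411 in VEH and 5216, 5200.4 and 4759 in VEH2, and it ranked between 16 and 46. Cytosolic ribosomal protein genes formed the broadest high class: all 77 were ranked, with median percentiles of 97.6 in siCtl, 97.7 in VEH and 97.9 in VEH2. The next genes in order were ENO1 of glycolysis, the elongation factor EEF2 and the endoplasmic reticulum chaperone CALR.

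**Figure D1:**
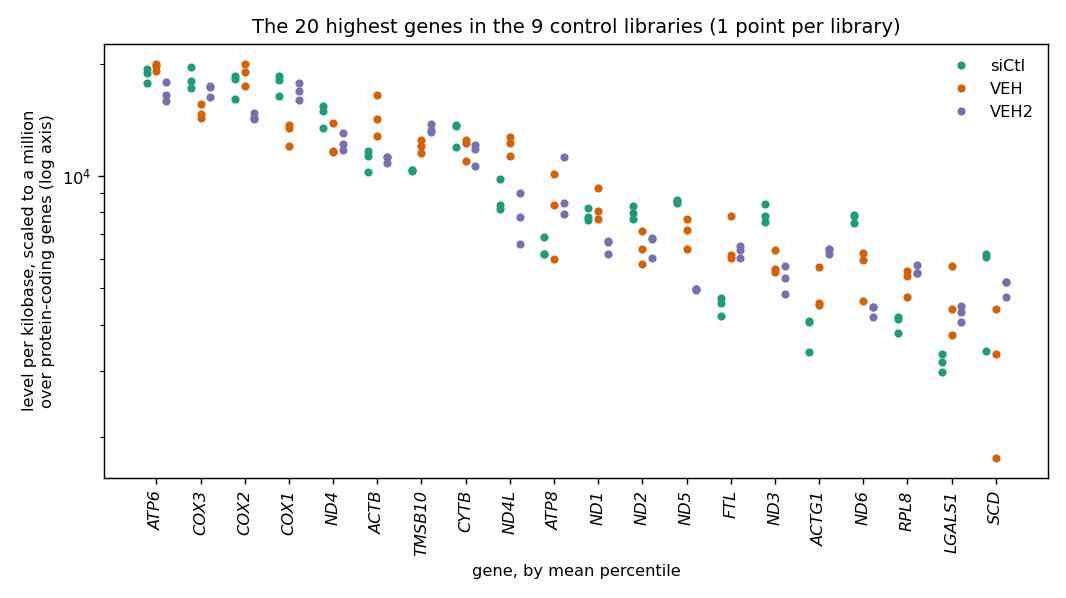
Levels per kilobase of the 20 highest genes, on a log axis scaled to 1e+06 over protein-coding genes, with 1 point per library coloured by control group. The 13 mitochondrial messages fill most of the left side, and SCD at the right has the widest spread, down to 1760 in VEH 2.

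Lineage markers placed all 3 control groups on the mesenchymal side. Of 40 mesenchymal and matrix genes, all were in the siCtl and VEH tables, and 34 lay above the median percentile in all 6 libraries, 19 of them above the 90th. Vimentin (VIM), the intermediate filament of mesenchymal cells, was at percentile 99.2, 99.2 and 99.3 in siCtl, 98.7, 98.9 and 98.7 in VEH and 99.1, 99.01 and 98.98 in VEH2 over the 9850 genes. N-cadherin (CDH2) was at 93.1, 93.1 and 92.9 in siCtl, 90.9, 90.3 and 90.2 in VEH and 93.4, 93.9 and 93.7 in VEH2. The collagen-modifying oxidase LOXL2, the tropomyosin TPM2, the integrin ITGB1 and the caveolar protein CAV1 were the highest of the list, each above the 98th percentile in all 9 libraries. Among the transcription factors of the epithelial-mesenchymal transition, TWIST1 was the highest (94.2, 94.6 and 94.7 in siCtl, 93.1, 91.9 and 91.8 in VEH and 93.3, 91.4 and 91.3 in VEH2) and ZEB1 was near the middle (63.7, 62.8 and 57.97 in siCtl, 60.2, 54.9 and 54.8 in VEH and 56.7, 58.3 and 57.9 in VEH2). These factors were mixed as a set. Of 10 on the list, 8 were listed in both siCtl and VEH. Over the 15019 genes, 4 of the 8 lay above the median percentile in all 6 libraries and 3 below it.

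Luminal genes were low or not listed. Of 28 luminal and epithelial genes, 17 were in both the siCtl and VEH tables, and 11 of the 17 lay below the median percentile in all 6 libraries. EPCAM and ESR1, the epithelial adhesion molecule and the oestrogen receptor, were in none of the 3 sets of values analysed here. E-cadherin (CDH1) had 100, 101 and 73 reads in siCtl and 94, 88 and 41 in VEH. KRT8 had 15, 19 and 20 reads in siCtl and 30, 30 and 9 in VEH, and KRT18 had 16, 12 and 14 in siCtl and 28, 19 and 4 in VEH, so neither simple keratin reached percentile 14 over the 15019 genes. The progesterone receptor PGR had 0, 1 and 0 reads in VEH and was not in the siCtl or VEH2 values. KRT7, GATA3, XBP1 and MUC1 were among the luminal genes above the median in all 6 libraries. XBP1 and MUC1 are also expressed outside epithelium. KRT19 differed between the groups: it had 194, 177 and 305 reads in siCtl and 37, 75 and 21 in VEH, which did not overlap although VEH 1 and VEH 2 were the deepest libraries (log2 difference siCtl minus VEH 2.20, SE 0.28, adjusted p = 8.0e-04 by edgeR).

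As a summary, the median percentile of the mesenchymal list minus that of the luminal list was 69.3 ± 2.73 (SD, n = 3) in siCtl and 71.0 ± 5.08 (SD, n = 3) in VEH over the 15019 genes. The groups overlapped, with siCtl between 66.3 and 71.5 and VEH between 65.4 and 75.3. In VEH2 only 6 luminal genes could be ranked, and the difference over the 9850 genes was 47.6 ± 1.71 (SD, n = 3). Over those same 9850 genes its mean was 33.0 in the 6 siCtl and VEH libraries.

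Basal markers were mixed. CDH3 (P-cadherin), EGFR, ITGA6, FOXC1 and LAMA3 lay above the median percentile in all 6 siCtl and VEH libraries, and the other 7 of 12 basal genes in both tables lay below it, KRT5 with 0 reads in every siCtl library and 4, 3 and 3 in VEH. KRT14, another basal keratin, was listed in VEH alone, with 8, 2 and 4 reads. EGFR, the epidermal growth factor receptor, was at percentile 89.5, 88.5 and 88.8 in siCtl, 83.1, 87.1 and 85.5 in VEH and 81.4, 80.8 and 81.6 in VEH2 over the 9850 genes. Of the other receptors, over the same 9850 genes, the glucocorticoid receptor NR3C1 was high (89.8, 89.5 and 90.98 in siCtl, 86.7, 84.9 and 80.6 in VEH and 82.1, 82.5 and 84.4 in VEH2) and ERBB2 was lower (40.5, 35.5 and 31.9 in siCtl, 44.7, 43.6 and 49.5 in VEH and 37.6, 41.4 and 40.8 in VEH2). Over the 15019 genes, which include low ones, ERBB2 was above the median in all 6 libraries, at 53.7 to 65.9. The tumour suppressor CDKN2A was above the 97th percentile in all 9 libraries, whereas RB1 lay between 19.9 and 34.6 over the 9850 genes and between 45.1 and 55.6 over the 15019. MYC, the target of the series, was between percentile 88.8 and 95.1, and KAT2A, which encodes GCN5, was between 44.1 and 63.1, both over the 9850 genes.

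Leukocyte, adipocyte and hepatocyte markers were low. All 8 leukocyte genes in both tables were below the median percentile, with 4 to 36 reads of PTPRC per library, and their summed level was 16.02 to 20.7 in the 6 libraries. The 3 adipocyte and 2 hepatocyte genes were below it as well. For endothelial cells, ENG lay just above the median and TEK was low, with a summed level of 19.4 to 34.4. Of 5 neural genes, 2 lay above the median in all 6 libraries, the tubulin TUBB3 (78.6 to 83.5) and the enolase ENO2 (58.9 to 75.3), and 3 below. Their part in other results was not tested.

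**Figure D2:**
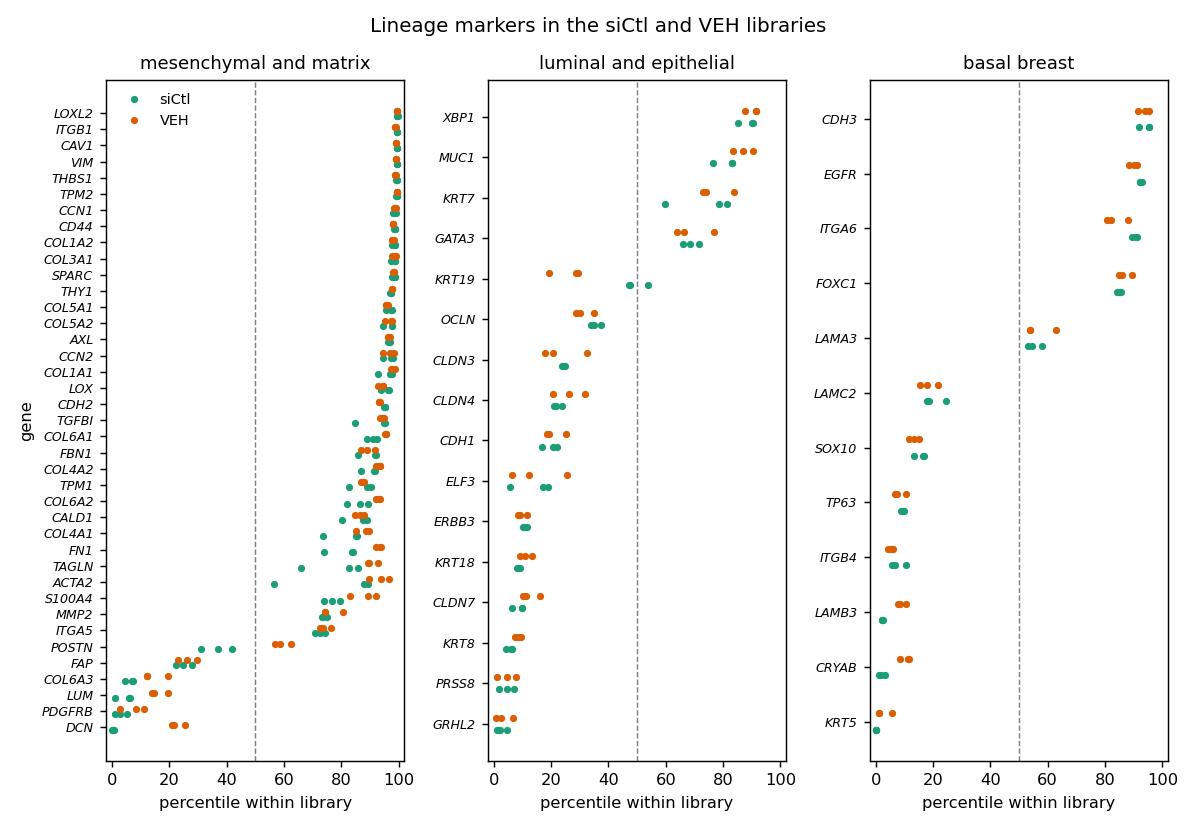
Percentile of lineage markers within the siCtl and VEH libraries over 15019 genes, with 1 point per library and a dashed line at the median. Mesenchymal genes crowd the right edge, 11 luminal genes sit left of the line, and basal genes split into 5 high and 7 low.

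A wide difference among the control groups was in RNAs that lack a poly(A) tail. RN7SL1 had 31228, 34936 and 31793 reads per 1e+06 (RPM) in siCtl and 28791, 40952 and 50072 in VEH but 31.7, 47.96 and 40.8 in VEH2. It was the highest gene per kilobase in all 6 siCtl and VEH libraries, where it held 29.9% to 42.7% of the summed per-kilobase values, and at percentile 96.7, 98.2 and 97.8 in VEH2. MALAT1, a nuclear long noncoding RNA, had 27094, 27989 and 23054 RPM in siCtl, 20589.5, 12566 and 11816 in VEH and 1620.4, 1718 and 1743 in VEH2. Neither range of VEH2 came near the others.

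Replication-dependent histone genes were also lower or not listed in VEH2. Of 50 on the list, 48 were in the siCtl table and 49 in the VEH table, and the list summed to 4764 to 6851 RPM in these libraries. Only H2AC6 and H2BC12 were in the VEH2 table, and the list gave 24.4, 27.3 and 31.1 RPM. H2AC6, whose stem-loop is shown above, was at percentile 98.2, 98.3 and 98.4 in siCtl and 98.1, 98.5 and 97.8 in VEH but 43.1, 42.5 and 48.5 in VEH2, the largest downward gap of that group. H2BC12 was at 99.6, 99.7 and 99.7 in siCtl, 99.7, 99.7 and 99.7 in VEH and 86.3, 89.7 and 90.8 in VEH2. Its call was lost when trends with GC content and length were removed or without VEH2 1. Histone genes are near-identical copies, so the split of reads among them is uncertain. The stem-loop motif was found in 13 of the 48 histone genes with a transcript in the annotation. The search used a narrow pattern. Several annotated transcripts without a match are short, with 381 bases in H2BC12 and 312 in H4C1, while others such as H2AC11 have 2250. A gene without a match is therefore not shown to lack the stem-loop. By contrast, the 13 mitochondrial messages, most of which carry short poly(A) tails, took 2.84% to 3.14% of reads in VEH2 and 2.68% to 3.19% in the other libraries. The labels name the same ribosomal RNA depletion kit for all 9 libraries; whether the VEH2 libraries were selected for poly(A) in practice was not tested.

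**Figure D3:**
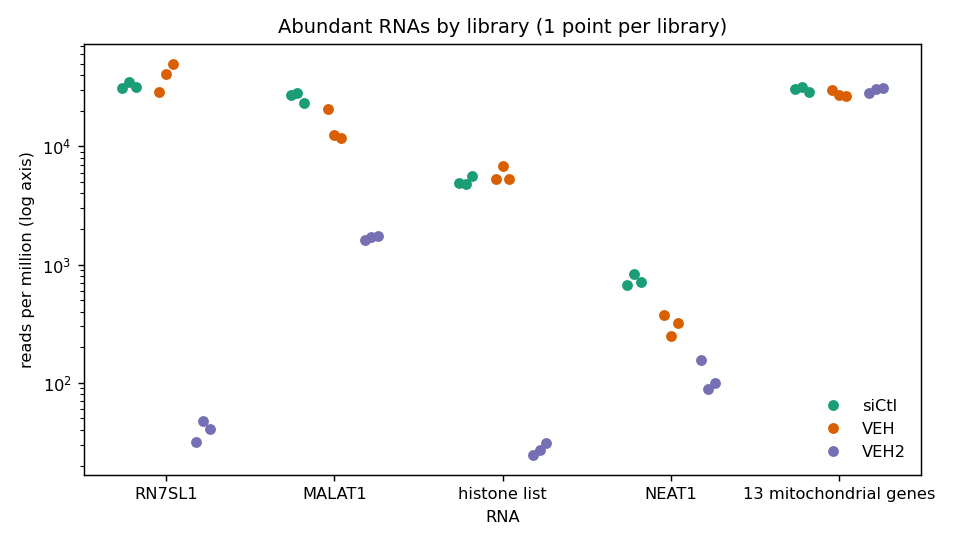
Reads per 1e+06 (RPM) of RN7SL1, MALAT1, the histone list, NEAT1 and the 13 mitochondrial messages, on a log axis with 1 point per library. VEH2 lies far below the other groups for the first 3 and level with them for the mitochondrial messages. The histone list sums only 2 genes in VEH2, but 48 in siCtl and 49 in VEH.

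VEH differed from both other controls in the interferon response. Of the 27 type I interferon response genes ranked in all 9 libraries, 24 were shifted higher in VEH and none lower, beside 219 of 9850 genes shifted higher (2.22%; 4.35% in either direction). The median percentile of the 27 was 40.8, 39.4 and 24.3 in siCtl, 88.8, 83.0 and 88.9 in VEH, and 28.8, 23.1 and 25.9 in VEH2. The count was 23 or 24 whichever library was left out, 24 after removal of GC and length trends and 19 of 21 among genes with a mean value of at least 500. IFITM3, IFI6 and ISG15, which were not called, lay above percentile 87 in every library. ISG15, a ubiquitin-like protein conjugated to targets, still had levels of 298, 265 and 149 in siCtl, 2141, 1306 and 2714 in VEH and 207, 183 and 210.3 in VEH2, which did not overlap.

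Sensors and effectors of antiviral defence made up the top of this list. All 10 protein-coding genes with the largest upward gap in VEH belonged to it: OAS2, OAS3 and OASL of the oligoadenylate synthetase family, which makes the activator of RNase L, the RNA-binding IFIT1, IFIT2 and IFIT5, the double-stranded RNA sensor IFIH1 (MDA5), the dynamin-like GTPase MX1, the ISG15 ligase HERC5 and the transcription factor IRF7. OAS2 (chr12:112978395-113011723) was at percentile 28.5, 15.6 and 1.95 in siCtl, 96.8, 93.6 and 96.1 in VEH and 7.51, 1.71 and 5.93 in VEH2. Its levels were 22.8, 14.6 and 5.07 in siCtl, 406, 253 and 369.6 in VEH and 6.94, 3.62 and 6.27 in VEH2. MX1 (chr21:41420304-41459214) had levels of 48.6, 33.9 and 7.88 in siCtl, 714, 432 and 728 in VEH and 22.5, 16.8 and 21.9 in VEH2. IFIT1, whose promoter is shown above, was at percentile 27.4, 21.2 and 6.41 in siCtl, 95.7, 89.6 and 93.8 in VEH and 27.4, 16.6 and 20.2 in VEH2. Every VEH library was high, and siCtl 3 was the lowest of the siCtl libraries for each of these 3 genes.

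The siCtl libraries differed among themselves in some of the same genes. MX1 had the widest range of any gene within siCtl, at percentile 57.3, 43.9 and 5.23, followed by the smooth muscle actin ACTA2 at 82.1, 84.5 and 36.1 and GBP1, an interferon-induced GTPase, at 67.4, 62.5 and 26.5. All 3 were lowest in siCtl 3. VEH2 was the lowest group for STAT2, PARP14 and EIF2AK2 (PKR), the only 3 list members shifted lower in VEH2.

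On the reads recovered for siCtl and VEH, edgeR's quasi-likelihood test gave 37 of 38 tested interferon genes lower in siCtl than in VEH and none higher, beside 2954 lower and 2551 higher of 14191 genes (38.8% called). The median log2 difference of the list was -3.03, against 0.01 over all genes tested. TRIM22, a restriction factor, had 7, 2 and 8 reads in siCtl and 750, 384 and 188 in VEH (log2 difference -6.41, SE 0.41, adjusted p = 5.8e-05 by edgeR). For OAS1 the reads were 132, 111 and 40 in siCtl and 6055, 3818 and 1528 in VEH (log2 difference -5.44, SE 0.41, adjusted p = 1.5e-04 by edgeR). IRF9, the DNA-binding subunit of ISGF3, was the exception, with 281, 245 and 244 reads in siCtl and 273, 257 and 75 in VEH (log2 difference 0.26, SE 0.16, adjusted p = 0.20 by edgeR). These p-values by edgeR measure the spread between libraries of 2 experiments and do not separate the siRNA control from the vehicle.

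The motif shown in capitals above was then counted in all promoters. GAAA followed by any 2 bases and GAAA, searched on both strands of the 300 bases from 250 before to 50 after the start, was present in 3.65% of 27305 RefSeq promoters and 2.70% of the 8110 promoters of ranked genes. It was present in 13 of the 18 list members shifted higher in VEH that had an entry (72.2%), in 16 of the 21 ranked list members with an entry, shifted or not (76.2%), and in 29 of the 172 genes of any kind shifted higher in VEH (16.9%). Among the 10 genes with the largest gap, 6 had an entry and all 6 held it. A match describes these letters and is not a measure of binding.

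**Figure D4:**
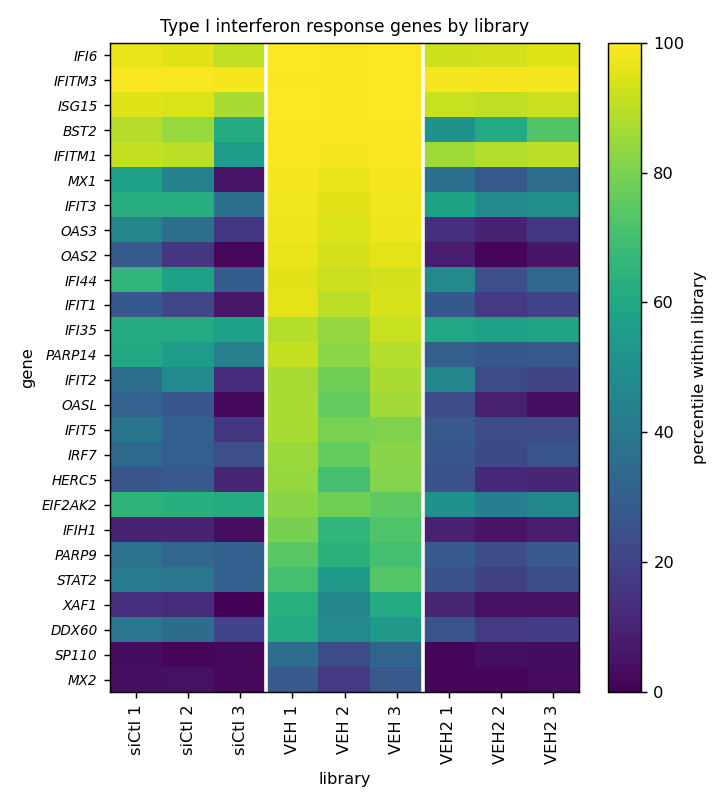
Percentile of type I interferon response genes in each of the 9 control libraries, from dark (low) to bright (high). The 3 VEH columns are brighter than the other 6 for most genes, and IFI6, IFITM3 and ISG15 are bright in all columns.

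Genes shifted lower in VEH were of another kind. They numbered 209 (2.12%), with a median transcript GC content of 38.6% against 47.7% over all ranked genes, and the median over genes shifted higher in VEH was 55.0%. Across the 9850 genes the VEH percentile relative to the other groups had a Spearman correlation of 0.56 with GC content. The largest gaps were in GABARAP, an autophagosome membrane protein, RBIS, a factor of ribosome biogenesis, PNISR, PAXBP1, PAWR, IER3IP1, CKLF, FAR1, PRPF39 and GMFB. GABARAP (chr17:7240014-7242770) was at percentile 76.99, 77.3 and 73.5 in siCtl, 42.5, 43.9 and 40.3 in VEH and 79.9, 82.4 and 78.2 in VEH2. With GC and length trends removed, the number of genes shifted in VEH was 231 in place of 428, and PAWR, FAR1 and GMFB were no longer called. CKLF was not called when ranks were taken without exon length. VEH 3 had the lowest percentile of the 9 libraries for all 10 genes. The interferon count did not move with this correction.

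In siCtl, 371 genes were shifted higher (3.77%) and 366 lower (3.72%; 7.48% in either direction). Genes shifted higher had a median GC content of 39.9% and those shifted lower 56.9%, and the correlation with GC content across genes was -0.45. The number shifted in siCtl was 468 with GC and length trends removed. The 10 largest upward gaps were in ZNF737 and ZNF727, 2 zinc finger genes, PTBP2, a splicing regulator, PLAC8, LRRC32, the docking receptor of latent TGF-beta, SH3D21, CNTNAP3, RAD54B, a recombination ATPase, CMBL and CENPE, a mitotic kinesin. PLAC8 (chr4:83090048-83137075) was at percentile 68.6, 70.7 and 69.7 in siCtl, 40.6, 47.8 and 38.98 in VEH and 31.4, 26.7 and 25.9 in VEH2, and was shifted lower in VEH2 as well. PTBP2 was at 33.1, 38.8 and 33.9 in siCtl, 10.3, 9.03 and 4.32 in VEH and 8.75, 7.69 and 6.38 in VEH2. On recovered reads PTBP2 was higher in siCtl than in VEH (log2 difference 1.55, SE 0.15, adjusted p = 2.9e-04 by edgeR). Among genes with a mean value of at least 500, the siCtl call of PTBP2 and the VEH2 call of PLAC8 were lost. Zinc finger genes whose symbol begins with ZNF made up 7.55% of the genes shifted higher in siCtl and 3.26% of all ranked genes. Their share was also 5.94% of genes shifted higher in VEH and 5.08% of those lower in VEH2. It was 2.46% of genes lower in siCtl, 2.39% of those lower in VEH and 1.06% of those higher in VEH2. The ZNF group was chosen after its values were seen.

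Mitotic genes included 3 of 30 shifted higher in siCtl and none lower, beside 3.77% higher and 3.72% lower of all ranked genes. The 3 were CENPE, the spindle protein ASPM and the checkpoint kinase TTK. ASPM was at percentile 91.96, 92.1 and 92.3 in siCtl, 84.3, 84.8 and 64.3 in VEH and 78.5, 71.6 and 74.2 in VEH2. The calls of ASPM and TTK were lost with GC and length trends removed or without VEH 3, and VEH 3 was the lowest library for all 3. The cyclin CCNB1, TPX2 and CDC20 stood above percentile 95 in every library. Of 25 ranked cholesterol synthesis genes, 3 were shifted higher in siCtl (3.77% of all ranked genes), among them the sterol reductase TM7SF2 and the sterol carrier STARD4. In VEH, 1 of the 25 was shifted higher (2.22% of all ranked genes). The calls of TM7SF2 and STARD4 were lost without exon length. Between siCtl and VEH, edgeR called 12 of 26 cholesterol genes higher in siCtl and 2 lower, beside 2551 higher and 2954 lower (20.8%) of all 14191 genes tested.

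The largest downward gaps in siCtl included PRSS35, a serine protease-like protein, HES4, a Notch-family repressor, IGFBP4, an IGF-binding protein, PCDH1, PHLDA3, CITED4, POSTN, LOXL1, an elastin-crosslinking oxidase, and ERFE. PRSS35 (chr6:83512538-83525704) separated all 3 groups, at 3.27, 5.48 and 0.381 in siCtl, 56.9, 32.5 and 57.3 in VEH and 66.5, 80.03 and 81.4 in VEH2. IGFBP4 was at 67.4, 66.3 and 41.4 in siCtl, 91.8, 88.96 and 94.05 in VEH and 86.1, 92.7 and 92.7 in VEH2. HES4 was at 61.6, 55.4 and 26.4 in siCtl, 88.9, 87.96 and 92.7 in VEH and 87.1, 92.5 and 92.6 in VEH2. As for the interferon genes, siCtl 3 was the lowest of the siCtl libraries for HES4, IGFBP4 and PRSS35. Without siCtl 3 the group still had 368 genes shifted higher and 346 lower, of which 624 calls were shared with the full set. PCDH1 was no longer called with GC and length trends removed.

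Matrix and contractile genes were part of that downward set. Of 38 ranked mesenchymal genes, 5 were shifted lower in siCtl and none higher, beside 3.72% lower and 3.77% higher of all ranked genes. The 5 were fibronectin (FN1), the calcium-binding S100A4, periostin (POSTN), transgelin (TAGLN) and ACTA2. FN1 was at percentile 76.8, 75.9 and 61.2 in siCtl, 90.9, 88.8 and 91.4 in VEH and 84.2, 91.6 and 91.7 in VEH2, and its call was lost when values were ranked without exon length. The calls of ACTA2 and S100A4 were lost with GC and length trends removed, and those of ACTA2 and TAGLN without siCtl 3. Recovered reads gave 16 of 40 mesenchymal genes lower in siCtl than in VEH and none higher by edgeR (median log2 difference -0.46). Of all 14191 genes tested, 2954 (20.8%) were lower and 2551 higher. The fall was not particular to this list. Cytoskeletal genes had 29 of 40 lower and 1 higher (median -0.58), and immediate early genes 15 of 34 lower and none higher (median -0.58). Some lists went the other way. Abundant noncoding RNAs had 13 of 24 higher in siCtl and none lower, and cholesterol genes 12 of 26 higher and 2 lower. Decorin (DCN), a proteoglycan of fibroblast matrix, had 5, 1 and 5 reads in siCtl and 245, 230 and 87 in VEH (log2 difference -5.81, SE 0.36, adjusted p = 5.6e-05 by edgeR). The transcription factor SNAI2 had a different level in each group, at 53.9, 59.2 and 47.7 in siCtl, 74.1, 59.95 and 67.02 in VEH and 80.1, 84.9 and 87.7 in VEH2, with no overlap. Its siCtl call was lost without VEH 1.

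CDKN1A, the p21 cyclin-dependent kinase inhibitor, was shifted lower in siCtl. It was at 35.5, 32.6 and 14.99 in siCtl, 57.7, 44.6 and 67.9 in VEH and 50.4, 55.9 and 55.9 in VEH2. Immediate early genes had 3 of 26 shifted lower in siCtl (ATF3, IER5 and the ERK phosphatase DUSP6), beside 3.72% of all genes, with DUSP1 higher in VEH and KLF4 lower in VEH2. Among glucocorticoid-responsive genes, 3 of 17 were shifted lower in siCtl (3.72% of all genes), namely KLF9, ANGPTL4 and CRISPLD2, and KLF9 was higher in VEH2. The VEH group had 2 higher (2.22% of all genes), namely PER1 and DUSP1, whose calls were lost both without exon length and with GC and length trends removed. The call of CRISPLD2 was lost without siCtl 3 and that of ANGPTL4 with GC and length trends removed. KLF9 was at 6.05, 7.14 and 4.14 in siCtl, 21.7, 18.7 and 27.98 in VEH and 34.3, 35.6 and 35.4 in VEH2.

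VEH2 had 283 genes shifted higher (2.87%) and 413 lower (4.19%; 7.07% in either direction). On a log2 level scale this balance depended on scaling: with a difference of at least 1 it was 331 higher and 19 lower when levels were scaled over all ranked genes, of which RN7SL1 takes a large share in siCtl and VEH, and 26 higher and 127 lower when scaled over protein-coding genes. The same 2 scalings gave 28 higher and 31 lower against 103 and 25 for siCtl, and 43 and 86 against 55 and 7 for VEH. Genes shifted lower in VEH2 were long. Their median exon length was 8.80 kb, against 5.39 kb over all ranked genes and 3.91 kb among genes shifted higher in VEH2, and 52.8% had a 3′ untranslated region over 3 kb, against 27.4% overall. Across genes, the VEH2 percentile relative to the other groups had a correlation of -0.32 with exon length and -0.05 with GC content.

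After H2AC6, the largest downward gaps in VEH2 were in SFT2D2, ZNF805, the forkhead factor FOXK1, TNRC6B, a scaffold of microRNA silencing, TULP4, RC3H1 (roquin), an RNA-binding ubiquitin ligase, RBM15, a cofactor of RNA methylation, CASTOR2 and RELL1. TNRC6B was at percentile 41.2, 41.4 and 44.6 in siCtl, 44.8, 41.9 and 39.2 in VEH and 4.02, 4.11 and 4.27 in VEH2. SFT2D2 had levels of 133, 128 and 147 in siCtl, 91.2, 108 and 79.9 in VEH and 21.5, 19.4 and 20.3 in VEH2. The noncoding RNAs NEAT1 and SNHG16 were shifted lower in VEH2, and NEAT1, the scaffold of paraspeckles, was in addition shifted higher in siCtl. It had 669.9, 832 and 708 RPM in siCtl, 373, 248 and 322 in VEH and 156, 88.2 and 99.6 in VEH2, although its siCtl call was lost without exon length. MGA, a MYC network factor, NF1, a RAS GTPase-activating protein, MDM2, a ubiquitin ligase, and TRRAP and ATXN7 of the SAGA complex were also shifted lower in VEH2. The calls of NF1, TRRAP and ATXN7 were lost with GC and length trends removed, and that of MGA among genes with a mean value of at least 500.

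The 10 largest upward gaps in VEH2 were in HBEGF, an EGFR ligand, FST (follistatin), the activin antagonist, SRXN1, a sulfiredoxin regulated by NRF2, the keratin KRT10, NXPH4, RAP1GAP2, TMEM217, MLF1, PRSS35 and CD99. HBEGF (chr5:140332843-140346631) was at percentile 26.8, 39.4 and 16.5 in siCtl, 24.5, 24.2 and 40.7 in VEH and 66.4, 62.8 and 70.3 in VEH2. FST was no longer called with GC and length trends removed. KRT10 was at 31.3, 28.4 and 31.1 in siCtl, 33.4, 39.2 and 39.7 in VEH and 65.3, 66.01 and 66.8 in VEH2. CD99 was uneven within the group, at 59.8, 18.4 and 16.8 in VEH2, and lies in the pseudoautosomal region, where 2 annotated copies can split reads. The hypoxia-inducible VEGFA, ADM and MXI1 were shifted higher as well (3 of 26 ranked hypoxia genes, beside 2.87% of all genes), as were LIF and TGFB2. Of the same 26 genes, 3 were shifted lower in siCtl (3.72% of all genes) and 1 lower in VEH (2.12%). VEGFA was at 54.7, 50.2 and 42.2 in siCtl, 42.6, 41.8 and 57.4 in VEH and 58.5, 62.7 and 63.7 in VEH2. The calls of VEGFA, ADM and MXI1 in VEH2 were lost when ranks were taken without exon length. That of VEGFA was also lost without siCtl 3, ADM without VEH 1, MXI1 without VEH2 3 and LIF without VEH 2.

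**Figure D5:**
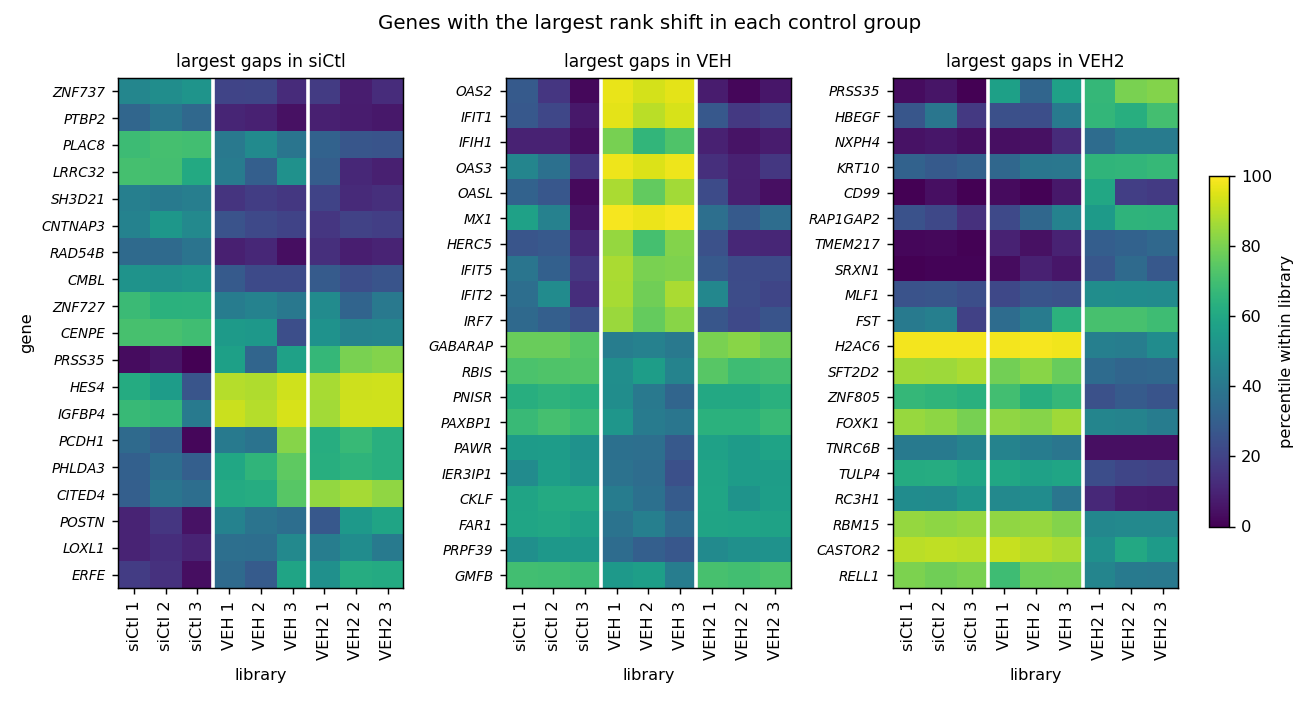
Percentile within each library of up to 10 protein-coding genes with the largest upward gap (top of each panel) and up to 10 with the largest downward gap (bottom) in siCtl, VEH and VEH2. The upper VEH panel consists of interferon-stimulated genes, and HES4 and IGFBP4 are darkest in siCtl 3.

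The remaining lists are given beside the shares of all genes shifted in either direction, 7.48% in siCtl, 4.35% in VEH and 7.07% in VEH2. None of the 13 mitochondrial messages or the 18 ranked heat shock genes was shifted in any group. The mitochondrial messages had a median percentile of 99.9 in each group and could not rise by 10 points. Heat shock genes had medians of 91.4 to 91.9, so many could not rise either. The absence of calls therefore does not show even levels. By edgeR, 5 of the 13 mitochondrial messages were lower in siCtl than in VEH and none higher. Of 18 heat shock genes tested, 9 were lower and 1 higher. The respiratory chain had 1 of 36 (SDHD, lower in VEH) and glycolysis 1 of 19 (LDHB, higher in siCtl). Of the 77 ribosomal protein genes, RPL21 was shifted higher in siCtl and RPL22 and RPS15A lower in VEH. The median percentile of these genes was 97.6 to 97.9 in the 3 groups, so most could not rise by 10 points. By edgeR, 42 of the 77 were lower in siCtl than in VEH and 5 higher (median log2 difference -0.37). Proteasome genes had PSMA1 and PSMA6 lower in VEH and PSMC1 higher in VEH2, of 30 ranked. In the MYC network MXD3 was shifted higher in siCtl, MXI1 higher and MGA lower in VEH2, of 10 ranked. Among 25 genes of the SAGA and ATAC complexes, which contain GCN5, TAF10 was shifted higher and TRRAP and ATXN7 lower in VEH2, with ZZZ3 higher and TADA2B lower in siCtl. In these lists, the calls of LDHB, RPS15A, PSMA1, PSMA6, PSMC1, MXD3, MXI1, MGA, TRRAP, ATXN7, ZZZ3 and TADA2B were each lost under at least 1 alternative.

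In pairwise comparisons, 1627 genes (16.5%) were shifted between siCtl and VEH, 1963 (19.9%) between siCtl and VEH2 and 1539 (15.6%) between VEH and VEH2, and these pairs share libraries. The count for siCtl and VEH was 910 with GC and length trends removed. A further 2470 genes in siCtl, 2121 in VEH and 2288 in VEH2 did not overlap the other groups but lay under 10 points from them. MBNL1 in siCtl and FYCO1 in VEH lay just inside the threshold at 10.003 points, and CD81 and FBXO4 just outside at 9.997. In VEH2, RPRD2 lay just inside the threshold at 10.01 points and EXOC8 just outside at 9.99.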

How the data were processed

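RNA sequencing values of 9 control libraries of BT549 cells were analysed, 3 in each of siCtl, VEH and VEH2. The deposited values were normalised signal per gene, in 1 table per experiment; featureCounts, DESeq2, SAMtools, bcl2fastq and GRCh38 are named in the submitters' processing notes, without versions. The aligner, the annotation and the strand setting are not given in the sources used here, so overlapping and antisense genes may share reads. The 15 treated libraries were not used.

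Within each library the values were whole multiples of 1 step, and 100% of values came out whole within a relative tolerance of 0.0001. In VEH2 the lowest listed values were 4 to 23 reads, and whole reads were not taken as established there, so count tests used siCtl and VEH only and the design's contrasts that include VEH2 were not fitted. In VEH, 1.62% to 1.86% of reads fell in features without a gene name. Values were divided by GENCODE 29 union exon length and ranked within each library, and no test was made across tables because each was normalised separately. The level scale over protein-coding genes was chosen after seeing the share of RN7SL1, and does not change ranks. edgeR 4.0.16 (quasi-likelihood, TMM, mean of at least 10 reads, Benjamini-Hochberg adjusted p under 0.05, two-sided) and DESeq2 1.42.0 ran in R 4.3.3, and other steps in Python 3.11.15 with pandas 2.3.3. Both procedures were tested on simulated data.

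Named genes were the 20 highest, the 10 protein-coding genes with the largest gap in each direction and group, up to 4 highest and 6 shifted members of each gene list, and lineage markers; other genes named were chosen after their values were seen. A few genes that met this rule are not reported here, in text or figures, though counts include them. The members and the 39 gene lists were chosen with earlier results of these data known. Promoter sequences came from RefSeq (GRCh38.p14), which held 18 of the 24 interferon genes shifted in VEH.

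Alternatives were ranking without length, a filter at a mean value of 500, removal of GC and length trends, protein-coding genes only, a log2 scale with pseudocount 1, and leaving out each library.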

Additional observations from a re-analysis of the deposited data

How the results depend on the processing

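Named genes were followed over 13 alternatives, which did not include the log2 scale. None of their 149 calls in a group reversed, and 84 were kept under all 13. The other 65 were lost under at least 1, of which 38 with GC and length trends removed. That removal gave 468 genes shifted in siCtl, 231 in VEH and 910 between siCtl and VEH. The log2 scale gave 59, 129 and 350 genes in siCtl, VEH and VEH2, and 128, 62 and 153 when scaled over protein-coding genes, an alternative chosen after seeing the data. The median over all genes was shifted by -0.63 (VEH minus VEH2) under the first scaling and 0.01 under the second. For siCtl minus VEH it was 0.26 and 0.20, and for siCtl minus VEH2 -0.38 and 0.20, so siCtl stayed offset under the second. Ranking without length kept 11 of the 20 highest genes, and the cause was not tested. Over symbols shared by all 3 tables the lineage difference in siCtl and VEH was 33.0. There 6 of the 17 luminal and 38 of the 40 mesenchymal genes remained. The luminal median percentile was 57.1 in siCtl and 59.96 in VEH, against 18.7 to 29.4 per library over the 15019 genes. Both the genes kept and the ranked set differ there, and their parts were not tested apart.

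Leaving out 1 library gave 630 to 858 genes shifted in siCtl, 338 to 608 in VEH (the highest without VEH 2) and 648 to 814 in VEH2, 1326 to 1941, 1893 to 2072 and 1508 to 1749 for the pairs siCtl and VEH, siCtl and VEH2, and VEH and VEH2, 23 to 24 interferon genes, 19 to 20 of the highest genes and a lineage difference of 69.2 to 71.1. On recovered reads edgeR called 3405 to 5113 genes with 1 library left out, 3405 without siCtl 2 and 3522 without siCtl 1, against 5505 with all 6; fewer samples entered these fits. DESeq2 called 5265. The fit with the replicate number as a block called 3685 genes. Deviations of same-numbered libraries correlated at -0.03, -0.25 and -0.27, so the libraries share only a number. The edgeR, DESeq2 and block fits of 1 group against the mean of the other 2, which need VEH2 reads, were not run. Depth limits low genes most in VEH 3 and VEH2 1.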
